A study of Rattus norvegicus with 4 samples.

Results

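The miR-34 family was examined in small RNA libraries from rat aortic vascular smooth muscle cells, taken as the 3 mature microRNAs (miRNAs) miR-34a-5p, miR-34b-5p and miR-34c-5p. A sequenced read form (tag) was given to a member when its first 18 nt were identical to the mature sequence, the longest common start deciding between members. The 3 members are 3 of 692 distinct mature rat sequences in the RefSeq table used, of which 410 had reads in these libraries and 179 had at least 100 reads in some library. They took 288633 reads in 421 distinct tags over the 4 libraries, 283249 of them miR-34c-5p, 5097 miR-34a-5p and 287 miR-34b-5p.

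The cells came from the aorta of Sprague-Dawley rats and were grown in M199 medium with 10% fetal bovine serum, of which every group was then depleted for 48 h. Cells in 1 library were left untreated (control), and those in the other 3 were given angiotensin II (Ang II) at 100 nM for 1 h, 3 h or 24 h. Ang II is the peptide of the renin system that constricts vessels. No genetic change is named for any group. With 1 library a group there is no replicate check and no test of conditions, the control carries no time of its own, and all 3 comparisons share it. Ang II and time in culture therefore cannot be told apart.

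Reads with a named sequence numbered between 13119417 (1 h) and 14534892 (24 h) per library, with 14395539 in the control and 14370167 after 3 h. Levels are reads in each 1000000 of that total (RPM), and intervals are exact 95% intervals for the counting error of reads alone. They do not cover differences between cultures. Copies made by PCR are not independent molecules, so the intervals can be too narrow even for counting error. Reads with an unread base made up 0.352% of the control library and 0.127% to 0.155% of the other 3. The labelled cell type was checked on miRNA markers. The smooth muscle list (miR-143 and miR-145, both arms) summed to between 251047 RPM in the control and 312678 RPM after 3 h. The endothelial arms of miR-126 summed to between 104.9 RPM after 24 h and 125.5 RPM after 3 h, and the blood list to between 0.457 and 0.757 RPM, with miR-142-5p and miR-223-3p at 0 reads in every library. miR-133b-3p of the striated muscle list was also at 0 reads throughout, while that list summed to between 98.4 and 122.2 RPM, nearly all of it miR-1-3p. The RefSeq table held 4 of the 5 blood markers and 1 of the 2 nerve markers. miR-9-5p of the nerve list stood at 31.6 to 43.8 RPM, highest in the control, and the liver marker miR-122-5p at 0.0688 to 0.229 RPM. Their part in the results was not tested.

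miRNAs are cut from hairpin precursors, and bases 2 to 8 of the mature strand, the seed, pair with target messenger RNAs and lower their output. The miR-34 genes are known as direct targets of the tumour suppressor p53, and the miRNAs restrain the cell cycle and promote senescence and cell death, among others through cyclin-dependent kinase 6, BCL2 and SIRT1. In vessels miR-34a is studied in ageing of smooth muscle and endothelium, while miR-34b and miR-34c come from 1 shared transcript and, with the related miR-449, are best known from ciliated epithelium and testis. p53 itself was not measured in these small RNA libraries.

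The mature sequences are shown because the seed defines the family and because miR-34b-5p and miR-34c-5p are nearly the same. They are from RefSeq (build GRCr8), written 5′ to 3′ with the seed in capitals. All 3 members and both relatives carry the seed GGCAGUG.
miR-34a-5p: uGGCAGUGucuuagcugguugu
miR-34b-5p: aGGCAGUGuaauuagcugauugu
miR-34c-5p: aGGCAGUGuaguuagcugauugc
miR-449a-5p: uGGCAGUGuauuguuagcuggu
miR-449c-5p: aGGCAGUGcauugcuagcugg

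miR-34b-5p and miR-34c-5p, each 23 nt long, are identical at 21 positions. Counted from 1 at the 5′ end and from miR-34c-5p to miR-34b-5p, the differences are G11A and C23T. Since 1 of them lies within the first 18 nt, a single misread base can move a read from one member to the other. miR-34a-5p shares 8 bases with miR-34c-5p from base 2 on and differs after that.

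The hairpins are shown for the position of their arms, with the 5p and 3p mature sequences in capitals. Mir34a lies at chr5:165815952-165816053 (plus strand), Mir34b at chr8:60306609-60306692 and Mir34c at chr8:60306091-60306167, both on the minus strand and 441 bases apart, all in GRCr8. Each is annotated as a miRNA gene. The files themselves hold no coordinates.
Mir34a: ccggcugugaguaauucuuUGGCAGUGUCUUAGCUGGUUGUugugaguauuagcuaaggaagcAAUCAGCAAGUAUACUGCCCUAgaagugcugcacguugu
Mir34b: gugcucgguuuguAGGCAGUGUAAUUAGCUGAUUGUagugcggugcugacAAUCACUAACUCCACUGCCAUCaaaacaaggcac
Mir34c: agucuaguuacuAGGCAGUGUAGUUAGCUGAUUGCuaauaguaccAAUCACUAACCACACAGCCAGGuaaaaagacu

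The family was almost wholly miR-34c-5p in these cells, and by the 18-nt match no member was past 1.5-fold of the control at any time. miR-34c-5p stood at 4881 RPM in the control (4845 to 4918), 4675 RPM after 1 h (4638 to 4712), 5594 RPM after 3 h (5555 to 5633) and 4903 RPM after 24 h (4867 to 4939). The 3 h library was the highest and the 1 h library the lowest, and their intervals do not overlap. That order holds on deposited reads and on miRNA reads. With TMM factors, which scale on the bulk of miRNAs, or median-of-ratios factors, the 24 h library was the highest and the control the lowest. Among all miRNAs with reads it ranked 16 in the control and after 1 h and 14 after 3 h and 24 h.

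miR-34a-5p, the member most often studied as a p53 target, stood at 84.7 RPM in the control (80.1 to 89.6), 98.9 RPM after 1 h (93.6 to 104.4), 87.5 RPM after 3 h (82.7 to 92.4) and 91.0 RPM after 24 h (86.2 to 96.1). The 1 h library was the highest, above the intervals of the control and of 3 h, and the control, 3 h and 24 h intervals overlap. With TMM or median-of-ratios factors its 24 h library was the highest. Its rank was between 86 and 91.

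miR-34b-5p was by far the least read member, with 79 reads in the control, 50 after 1 h, 92 after 3 h and 66 after 24 h. That is 5.49 RPM (4.34 to 6.84), 3.81 RPM (2.83 to 5.02), 6.40 RPM (5.16 to 7.85) and 4.54 RPM (3.51 to 5.78). Only the 1 h and 3 h intervals lie apart from each other. It ranked between 175 and 194 of 356 to 363 miRNAs with reads. The order of the members by reads was the same in every library, miR-34c-5p above miR-34a-5p above miR-34b-5p, with gaps far beyond counting error. Reads of different miRNAs are not molecules on 1 scale, since adapters join to some sequences more readily than to others.

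**Figure D1:**
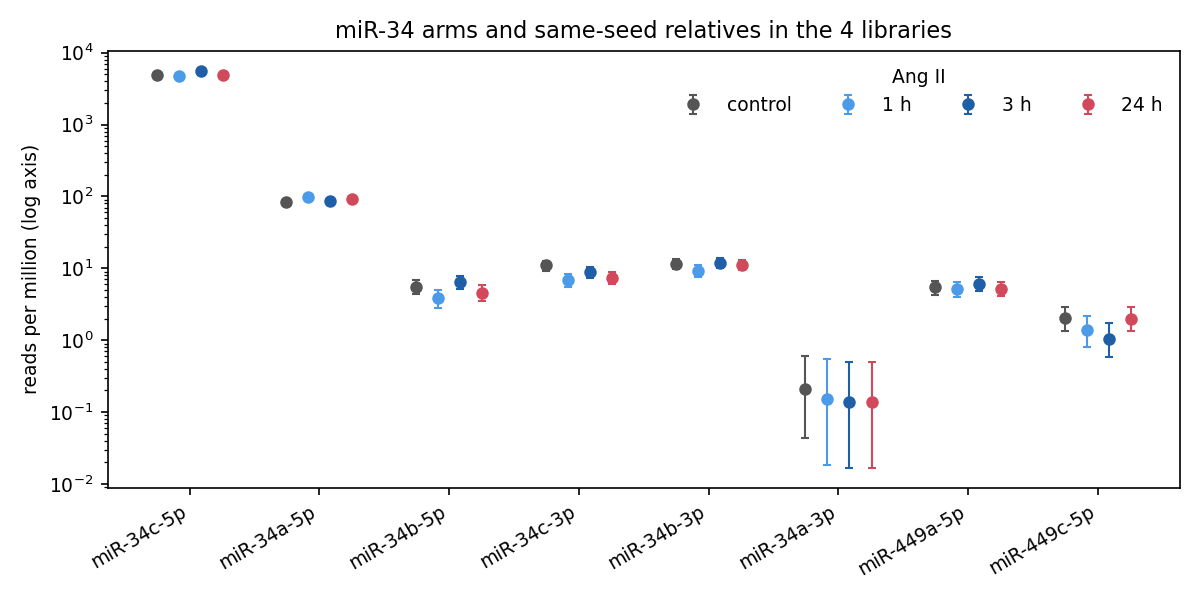
RPM (log axis) of the 5p and 3p arms of the miR-34 hairpins and of the related miR-449 5p arms in the control and 1 h, 3 h and 24 h Ang II libraries, with points for 1 library each and bars for exact 95% Poisson intervals. miR-34c-5p lies between 4675 and 5594 RPM in all 4 libraries, miR-34a-5p between 84.7 and 98.9 RPM, and miR-34b-5p between 3.81 and 6.40 RPM, below both miR-34b-3p and miR-34c-3p.

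A miRNA was called higher or lower when its ratio of (RPM + 1) lay beyond 1.5-fold either way and its higher library had 100 reads or more. By that rule 4.60% of the 174 miRNAs tested were called after 1 h, 8.52% of 176 after 3 h and 21.9% of 178 after 24 h, in either direction. Of the family, miR-34a-5p and miR-34c-5p had the reads to be tested, and 0 of these 2 were called at each time. With 2 tested members, none called is close to what those shares would give.

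miR-34c-5p had a ratio to the control of 0.958 after 1 h (0.947 to 0.968), 1.15 after 3 h (1.13 to 1.16) and 1.00 after 24 h (0.994 to 1.015). miR-34a-5p had 1.17 after 1 h (1.08 to 1.26), 1.03 after 3 h (0.953 to 1.12) and 1.07 after 24 h (0.993 to 1.16). The intervals of miR-34b-5p, which was too little read to be tested, all hold 1: 0.694 after 1 h (0.477 to 1.002), 1.17 after 3 h (0.854 to 1.60) and 0.827 after 24 h (0.588 to 1.16). These ratios are small enough that the scale decides some signs. The log2 ratio of miR-34c-5p after 1 h was -0.06 and became 0.01 with TMM factors, and after 24 h it was 0.01 and became 0.26. That of miR-34a-5p after 3 h was 0.05 and became -0.07 when scaled to miRNA reads, and after 24 h it was 0.10 and became 0.35 with TMM or median-of-ratios factors.

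The median log2 ratio of all tested miRNAs was -0.09 after 1 h, -0.06 after 3 h and -0.25 after 24 h, and with TMM factors it was -0.02, -0.02 and -0.01. Set beside these, miR-34a-5p had log2 ratios of 0.22, 0.05 and 0.10 and miR-34c-5p had -0.06, 0.20 and 0.01, each above the median of its time. At 24 h the upper quartile of all tested miRNAs was 0.02. Between the lowest and the highest library, miR-34a-5p spanned 0.22 on the log2 scale and miR-34c-5p 0.26, against a median span of 0.45 over the 179 miRNAs with 100 reads. Of those, 10 spanned less than miR-34a-5p and 24 less than miR-34c-5p. With TMM factors miR-34a-5p spanned 0.35, with 69 spanning less, and miR-34c-5p 0.26, with 37 spanning less, against a median of 0.42.

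**Figure D2:**
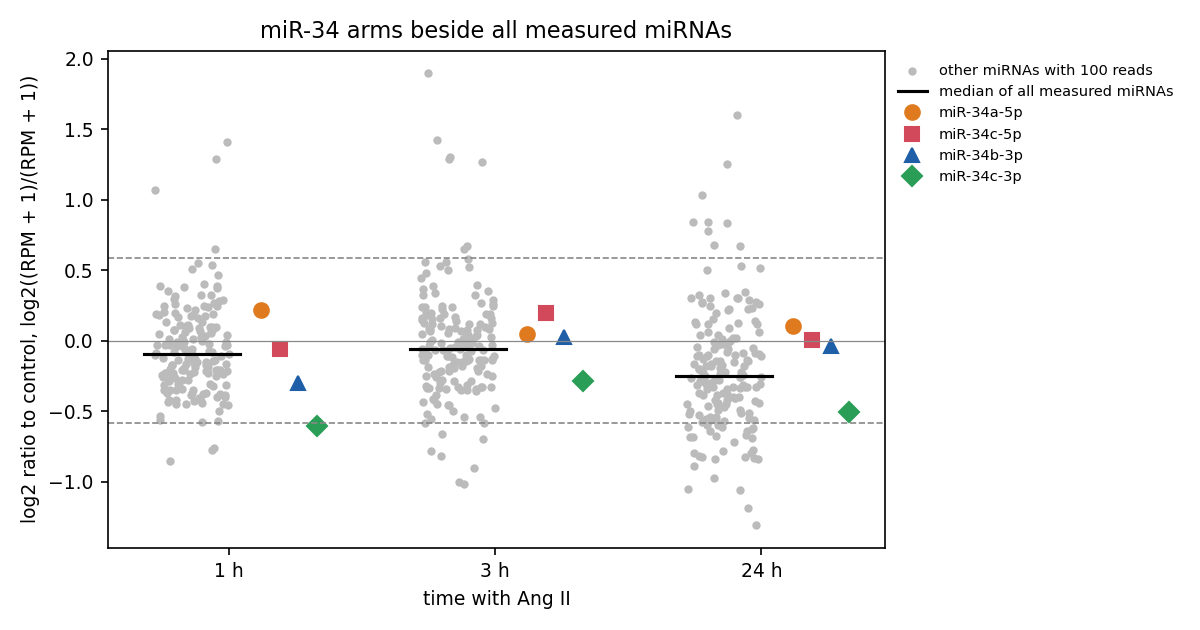
Log2 ratio of (RPM + 1) to the control after 1 h, 3 h and 24 h of Ang II for miR-34a-5p, miR-34c-5p, miR-34b-3p and miR-34c-3p (coloured symbols), beside all other miRNAs with 100 reads (grey points), with the median of all measured miRNAs as a black line and 1.5-fold as dashed lines. miR-34a-5p and miR-34c-5p stay within 0.22 of the control, and miR-34c-3p lies just past the lower dashed line after 1 h.

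Among the 3 Ang II libraries, miR-34c-5p after 3 h was 1.20 times its 1 h level (1.18 to 1.21), and after 24 h 0.876 times its 3 h level (0.868 to 0.885). The latter rests on the scale: its log2 value of -0.19 became 0.02 with TMM and 0.03 with median-of-ratios factors. miR-34a-5p had the opposite order after 3 h, 0.885 times its 1 h level (0.818 to 0.957), and after 24 h 1.04 times its 3 h level, an interval that holds 1 (0.963 to 1.125). miR-34b-5p after 3 h was 1.68 times its 1 h level (1.18 to 2.42) on 92 and 50 reads. By the size rule 1.18% of 170 miRNAs were called between 1 h and 3 h and 14.5% of 173 between 3 h and 24 h, and neither tested member was among them.

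The balance between members can be read within a library, where no scale between libraries enters. miR-34c-5p made up 98.2% of the family's reads in the control, 97.9% after 1 h, 98.3% after 3 h and 98.1% after 24 h. miR-34a-5p made up 1.70% in the control (1.61 to 1.80), 2.07% after 1 h (1.96 to 2.18), 1.54% after 3 h (1.45 to 1.62) and 1.82% after 24 h (1.72 to 1.92). Its share was highest after 1 h, where that interval overlaps none of the others, and lowest after 3 h. There were 57.6 reads of miR-34c-5p for each of miR-34a-5p in the control, 47.3 after 1 h, 64.0 after 3 h and 53.9 after 24 h.

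The reads counted as miR-34b-5p were examined by their last base, because 1 substituted base within the matched start separates the pair. The 5 most read tags are shown with capitals for bases that differ from mature miR-34b-5p or extend beyond it.
tag 1: aggcagtgtaattagctgattgC
tag 2: aggcagtgtaattagctgattgt
tag 3: aggcagtgtaattagctgattg
tag 4: aggcagtgtaattagctgattgtT
tag 5: aggcagtgtaattagctgattgtA
The most read was not the mature sequence. Tag 1 had 138 reads (33 in the control, 32 after 1 h, 43 after 3 h and 30 after 24 h), and it is also mature miR-34c-5p with the single substitution G11A. The mature sequence, tag 2, had 79 reads (27, 9, 27 and 16), and the other 3 had 18, 14 and 6.

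Of the 287 reads, 153 (53.3%, 47.4 to 59.2) carried the last base of miR-34c-5p and 111 (38.7%, 33.0 to 44.6) that of miR-34b-5p, the rest ending earlier or in another base. Among the reads given to miR-34c-5p, T at that position made up 0.122% to 0.156% in the 4 libraries. Reads with both bases of miR-34b-5p numbered 36 in the control, 14 after 1 h, 36 after 3 h and 25 after 24 h. With those alone, the log2 ratio after 1 h was -0.76, against -0.43 for all 18-nt matches. The mature tag alone was at 0.366 times the control after 1 h on 9 and 27 reads, with an interval that leaves out 1 (0.151 to 0.801). Its intervals after 3 h (0.565 to 1.77) and 24 h (0.295 to 1.13) hold 1.

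Tag 1 was set beside every other single substitution of the 23-nt miR-34c-5p, of which there are 69. It amounted to 0.0514% of the reads of the exact sequence over the 4 libraries, placed 41 of 69, near the median of 0.0585%. At the same position G11T reached 0.485% and G11C 0.169%, neither of which is a listed miRNA. Over the first 18 nt, tags with T at position 11 had 271, 362, 440 and 440 reads in the control, 1 h, 3 h and 24 h libraries, and tags with C had 204, 199, 219 and 265, both above the 79, 50, 92 and 66 with A. In read number, the 18-nt level of miR-34b-5p did not stand above these substitutions at position 11, which match no miR-34 gene. Rates differed by position and kind of change, and G11T and G11C are not changes to A. Among changes from G to A, G15A (0.332%) lay above tag 1. G2A (0.0447%), G18A (0.0346%), G3A (0.0309%), G22A (0.0268%), G8A (0.0264%) and G6A (0.0149%) lay below it. How many of the miR-34b-5p reads are misread miR-34c-5p was not tested. The most read substitutions were G18T at 3.56% and G22T at 2.73%. G18T was 4.12% of exact reads in the control, 3.10% after 1 h, 3.58% after 3 h and 3.38% after 24 h, and it falls outside the 18-nt match.

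**Figure D3:**
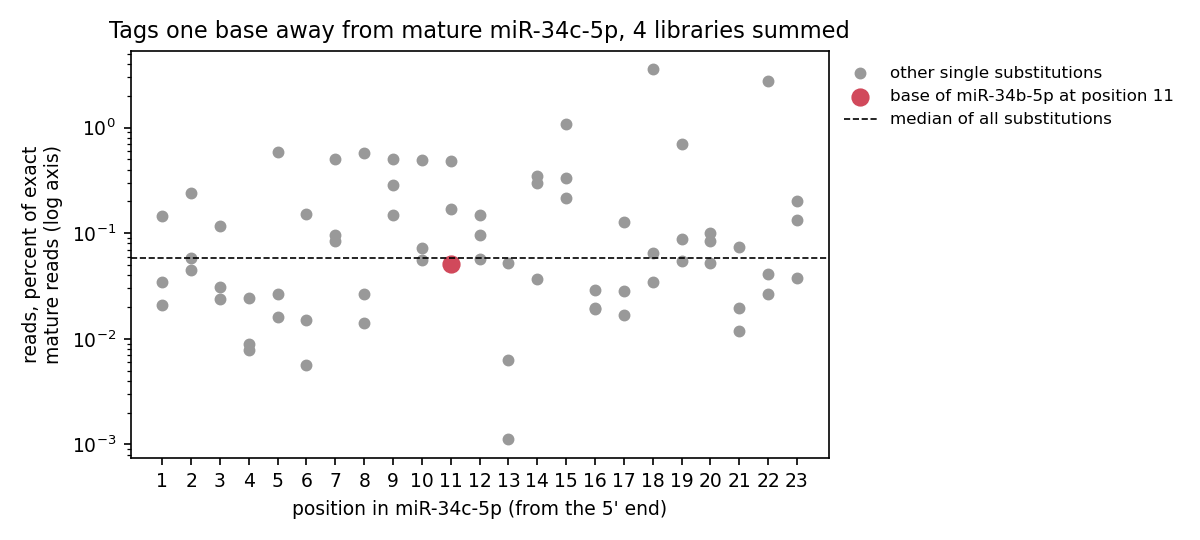
Reads of each tag that is 1 base away from mature miR-34c-5p, as percent of the exact sequence's reads (log axis, 4 libraries summed), by position from the 5′ end, with 3 points a position. The red point is the tag that carries the base of miR-34b-5p at position 11, at 0.0514%, just under the dashed median of 0.0585%.

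The members differed in how uniform their ends were. miR-34c-5p was nearly a single molecule: the mature 23-nt sequence held 94.1% of its reads in the control, 95.3% after 1 h, 94.9% after 3 h and 95.0% after 24 h. Tags of 23 nt held 99.1% or 99.2% in every library. Tags that follow the hairpin beyond the mature end had 1 read in the control and 2 in each other library.

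The 3′ end of miR-34a-5p was more varied, and its RefSeq form was not the main one. Its 5 most read tags are shown with capitals for bases that differ from the mature sequence or extend beyond it.
tag 1: tggcagtgtcttagctggttgtT
tag 2: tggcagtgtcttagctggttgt
tag 3: tggcagtgtcttagctggttgtAG
tag 4: tggcagtgtcttagctggttgGT
tag 5: tggcagtgtcttagctggttg
The form longer by 1 base, which follows the hairpin, held 42.6% of reads in the control, 42.8% after 1 h, 43.9% after 3 h and 47.1% after 24 h. The mature form held 23.0% (20.6 to 25.4), 23.5%, 23.1% and 25.8% (23.4 to 28.2). Both shares were highest after 24 h, where the interval of the mature form still overlaps that of each other library. Tag 3, whose last 2 bases do not both follow the hairpin, held 6.72%, 7.79%, 6.13% and 5.59%. Tags classed as ending in bases other than the hairpin's held 19.3%, 21.7%, 22.3% and 17.3% of miR-34a-5p reads, against 0.677%, 0.711%, 0.687% and 0.685% for miR-34c-5p. A single substitution short of the last base, as in tag 4 or G22T of miR-34c-5p, was classed apart. That class held 8.69%, 6.01%, 5.73% and 4.23% of miR-34a-5p reads and 4.50%, 3.38%, 3.72% and 3.55% of miR-34c-5p reads.

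**Figure D4:**
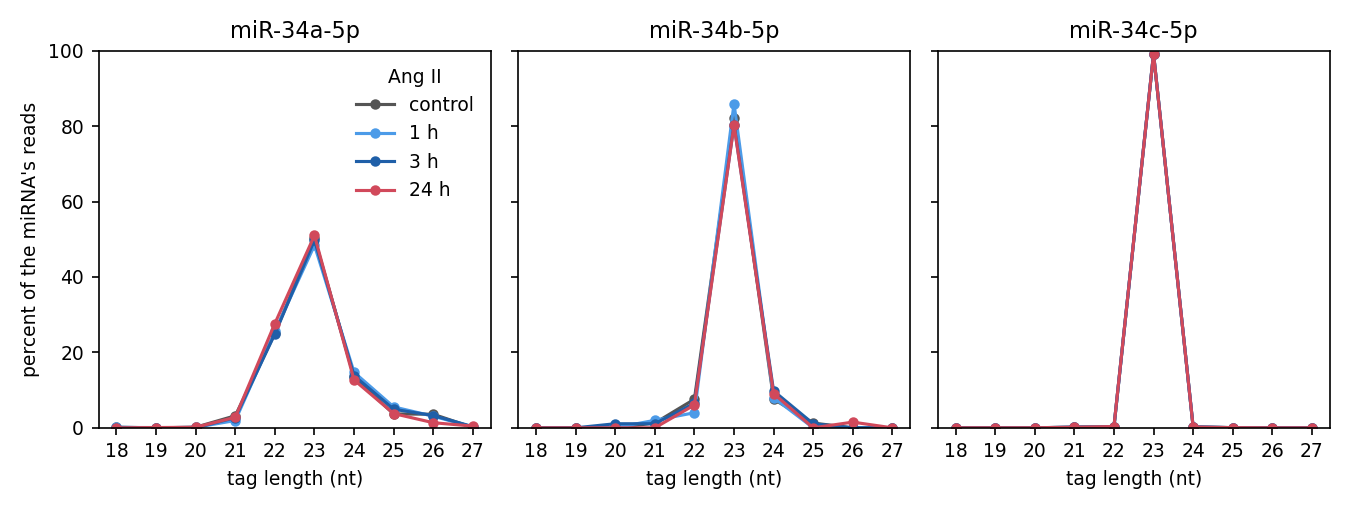
Percent of each member's reads by tag length (18 to 27 nt) in the control (grey) and 1 h, 3 h and 24 h Ang II libraries. miR-34a-5p peaks at 23 nt, with about as many of its reads at other lengths (23 nt held 48.4% to 51.0%), whereas 23 nt held over 99% of miR-34c-5p, and the 4 libraries lie almost on top of each other.

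A shift of the 5′ start changes the seed, so starts up to 2 nt either side were counted along the hairpins. For miR-34a-5p a start 2 nt earlier (tTTGGCAGtgtcttagct, with bases 2 to 8 in capitals) had 58, 68, 61 and 46 reads in the control, 1 h, 3 h and 24 h libraries. A start 1 nt later (gGCAGTGTcttagctggt) had 66, 63, 58 and 40. These made up 4.30% and 4.90% of its 5p reads in the control and 3.26% and 2.84% after 24 h. The annotated start held 90.5% (88.8 to 92.0), 90.6%, 91.3% and 93.8% (92.4 to 95.0), the 24 h interval lying above that of the control. For miR-34c-5p the annotated start held 99.97% or 99.98% in every library. For miR-34b-5p it held 92.9% in the control (85.3 to 97.4), 94.3% after 1 h, 91.1% after 3 h and 84.6% after 24 h (74.7 to 91.8), the other reads (6, 3, 9 and 12) starting 1 nt earlier. Here the 24 h share was the lowest, with an interval that overlaps that of the control.

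The opposite, 3p arms of the hairpins are the strands usually discarded. From RefSeq, with bases 2 to 8 in capitals, they are as follows, those of miR-34b and miR-34c sharing the seed AUCACUA and their first 10 bases.
miR-34a-3p: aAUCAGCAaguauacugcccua
miR-34b-3p: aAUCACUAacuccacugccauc
miR-34c-3p: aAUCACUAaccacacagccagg
In every library miR-34b-3p had more reads than miR-34c-3p, whereas there were 874 to 1227 reads of miR-34c-5p for each of miR-34b-5p. The 3p levels were close in the control (11.60 and 10.98 RPM). They lay apart after 24 h, at 11.28 RPM (9.62 to 13.15) and 7.43 RPM (6.10 to 8.97). miR-34b-3p had 167 reads in the control, 121 after 1 h, 170 after 3 h and 164 after 24 h, and miR-34c-3p had 158, 90, 127 and 108. miR-34a-3p had 3, 2, 2 and 2.

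For the miR-34b hairpin the 3p arm was the more read one in every library. It held 67.9% of both arms' reads in the control (61.7 to 73.7), 70.8% after 1 h, 64.9% after 3 h and 71.3% after 24 h, and between 82.3% and 89.6% when the 5p tags had to carry both bases of miR-34b-5p. For the other hairpins the 3p arm held well under 1%. miR-34c-3p made up 0.224% of both arms' reads in the control (0.191 to 0.262), 0.147% after 1 h (0.118 to 0.180), 0.158% after 3 h (0.132 to 0.188) and 0.151% after 24 h (0.124 to 0.183). All 3 Ang II libraries lie below the interval of the control library, which they share as reference. Counting the mature tags of both arms alone, the shares were 0.177% (0.146 to 0.212), 0.113% (0.0873 to 0.144), 0.121% (0.0972 to 0.148) and 0.115% (0.0910 to 0.144), the control again highest, with an interval that overlaps that of 3 h. The control is also the library with the most unread bases, and whether that bears on this share was not tested.

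miR-34c-3p was called lower after 1 h, at 0.625 times the control (0.477 to 0.815), from 10.98 RPM in the control to 6.86 RPM, where 2.30% of tested miRNAs were called lower. Its ratio was 0.805 after 3 h (0.632 to 1.02) and 0.677 after 24 h (0.525 to 0.870), neither past the rule. When scaled to miRNA reads the 24 h value was past it (-0.59), as were 25.3% of tested miRNAs in that direction. The call after 1 h, with a log2 ratio of -0.61, was lost with TMM factors (-0.56), with median-of-ratios factors (-0.53) and with a pseudocount of 10 RPM (-0.32). miR-34b-3p was not called. Its ratio was 0.795 after 1 h (0.624 to 1.01), 1.02 after 3 h (0.819 to 1.27) and 0.973 after 24 h (0.779 to 1.21).

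**Figure D5:**
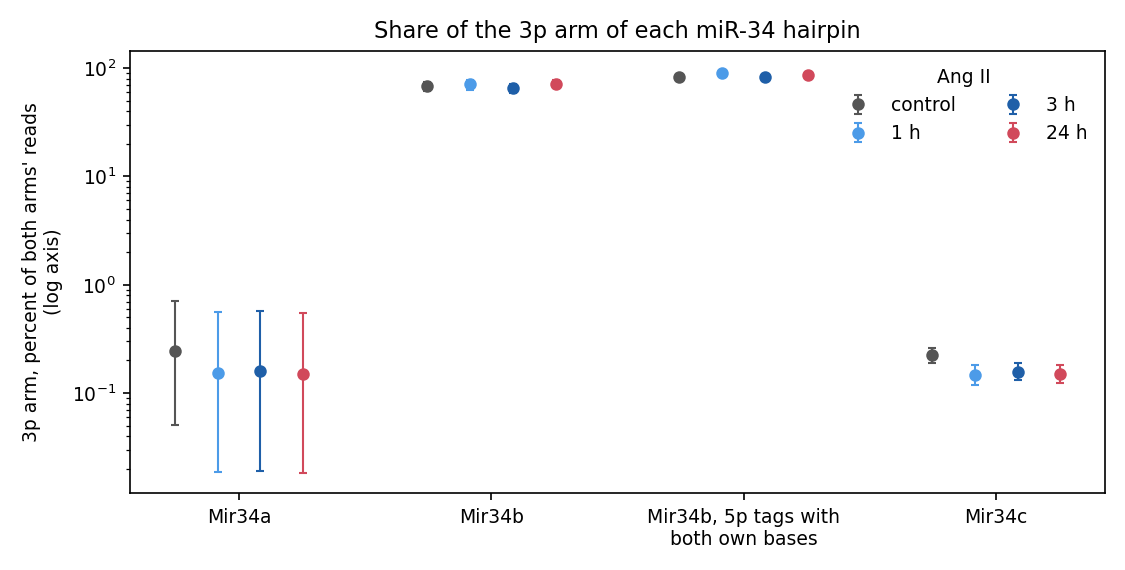
Share of 3p-arm reads among the reads of both arms of each miR-34 hairpin (percent, log axis) in the control and 1 h, 3 h and 24 h Ang II libraries, with exact 95% binomial intervals. Mir34b lies between 64.9% and 71.3%, or higher where its 5p tags had to carry both own bases, while Mir34a and Mir34c lie below 0.25%, and for Mir34c the control point stands above the other 3.

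The table holds 2 further miRNAs with the same seed, miR-449a-5p and miR-449c-5p, which come from a separate gene cluster. miR-449a-5p had 78 reads in the control, 67 after 1 h, 88 after 3 h and 76 after 24 h (5.11 to 6.12 RPM), close to the reads given to miR-34b-5p. miR-449c-5p had 29, 18, 15 and 29 (1.04 to 2.01 RPM). Neither reached 100 reads, and the intervals of their ratios to the control held 1 except for miR-449c-5p after 3 h (0.518, 0.258 to 0.999). miR-449a-3p had 0 reads in each library, which allows up to 0.206 to 0.229 RPM at 3 reads. The epithelial list, which includes both of these, summed to between 11.1 and 13.2 RPM with 6 of its 9 members in the table, miR-205 having 1 read in the control and 0 elsewhere, and miR-141-3p 0 in the control. Its part in the miR-34 levels was not tested.

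Other miRNAs with reported links to p53, transcribed from its targets or processed with its help, were taken as a list of 16, of which 15 were in the table and 13 had the reads to be tested. miR-143-3p and miR-145-5p are also on the smooth muscle list, and miR-200c-3p and miR-141-3p on the epithelial one. The list was chosen with earlier results of these data known, so its calls and median are not independent of them. None of its tested members was called after 1 h, 1 was higher after 3 h and 2 were higher after 24 h, with none lower. Of all tested miRNAs, 2.30%, 3.98% and 5.06% were called higher at these times, and 2.30%, 4.55% and 16.9% lower. The list's median log2 ratios were 0.03, 0.02 and -0.08, beside -0.09, -0.06 and -0.25 over all tested miRNAs, and with TMM factors they were 0.10, 0.06 and 0.17. miR-29b-3p, which targets collagens and other matrix genes, stood at 120.4 RPM in the control, 157.5 RPM after 1 h, 192.3 RPM after 3 h and 193.3 RPM after 24 h, the last being 1.61 times the control and the 3 h level 1.60 times. miR-182-5p, a member of the miR-183 cluster, stood at 23.7, 28.5, 30.2 and 43.3 RPM, after 24 h 1.83 times the control. Every Ang II library lay above the control for both, and 24 h stood apart for miR-182-5p. The 4 most read of the list were miR-143-3p (248197 RPM in the control), miR-103-3p (4223 RPM), miR-145-5p (2275 RPM) and miR-29a-3p (1682 RPM), and none of these was called. Reads that could not tell miR-103-3p from a relative were shared equally. When scaled to miRNA reads, miR-29b-3p was no longer past the rule after 3 h and 0 of the list were called there. After 24 h miR-107-3p, which shares reads with miR-103-3p, was then called lower (log2 -0.59), beside the same 2 called higher.

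The miRNAs whose course over the 4 libraries was most like that of each member were named by the smallest distance between log2(RPM + 1) values centred on their own mean. For miR-34a-5p these were miR-185-5p (distance 0.08), miR-155-5p (0.10) and miR-27a-3p (0.11), where the median distance to 178 candidates was 0.42. For miR-34c-5p they were miR-24-2-5p (0.115), miR-500-3p (0.116) and miR-125b-1-3p (0.12), with a median of 0.38. For miR-34b-5p the nearest of 179 was miR-34b-3p, from its own hairpin, at 0.27, followed by miR-128-3p (0.28) and miR-1839-3p (0.29), with a median of 0.54. Each distance rests on 4 libraries, and all miRNAs of a library share its depth.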

How the data were processed

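Per the labels' protocols, small RNAs between 17 and 52 nt were selected on a gel, amplified and sequenced on Illumina equipment. Each deposited file pairs distinct tags with unnormalized read counts. Novoalign and rn4 appear, without a role, in the submitters' processing notes. For trimming and filtering, tools and settings are not given in the sources used here. A row that names no sequence (5.13% to 7.07% of reads) was left out.

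Tags were matched to 692 mature RefSeq sequences (GRCr8), ties being shared equally. miRNA reads were 68.4% (control) to 74.4% (3 h) of reads. Ratio intervals are exact conditional binomial, shares Clopper-Pearson and levels Poisson, all at 95%. Alternatives were miRNA reads, TMM (edgeR 4.0.16, R 4.3.3) or median-of-ratios scaling, other pseudocounts, tag rules, folds, read minimums and reference. The requirement of both own bases for miR-34b-5p, and dropping tags with unread or adapter bases, were chosen after seeing the data. Members and lists were chosen with earlier results of these data known. Named were all members, arms and same-seed miRNAs, the 5 most read tags, the 3 nearest miRNAs, and in the p53-linked list those called and the 4 most read.

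The scripts were tested on simulated data. Of 6165 synthetic tags 6108 went to their miRNA alone, and of the simulated features all 20 made 2-fold higher were called and 0 of 298 unchanged ones. These simulated counts varied by counting error alone, at equal depth and well above the read minimum. They check that the rule was coded as stated and cannot show how often single libraries differ past it. Software was Python 3.11.15 with scipy 1.17.1, pandas 2.3.3, numpy 2.4.6 and, for plots, matplotlib 3.10.9.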

Additional observations from a re-analysis of the deposited data

How the results depend on the processing

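With 1 library a group, no replicate could be left out, and no paired analysis was possible because each group holds 1 library. The count of members called stayed at 0 at each time under every alternative run, including a 2-fold limit and minimums of 20 or 1000 reads. The 2-fold limit and the minimum of 1000 reads are stricter than the main rule, so they could only return 0. Counted by the mature sequence or by both own bases, miR-34b-5p had log2 ratios of -0.77 and -0.76 at 1 h. It stayed under the minimum of 100 reads there, so it could not be called. Scaled to miRNA reads, levels in the control, 1 h, 3 h and 24 h libraries were 123.8, 135.8, 117.5 and 126.5 RPM for miR-34a-5p, 8.02, 5.24, 8.60 and 6.31 for miR-34b-5p and 7133, 6422, 7517 and 6816 for miR-34c-5p. With only the mature sequence counted they were 19.5, 23.2, 20.2 and 23.5 RPM, 1.88, 0.686, 1.88 and 1.10 RPM, and 4591, 4453, 5306 and 4659 RPM, and miR-34c-5p then made up 99.54%, 99.47%, 99.59% and 99.48% of the family.

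Log2 ratios that changed sign were those of miR-34c-5p at 1 h (0.0073 with TMM and 0.0414 with median-of-ratios factors) and at 24 h (-0.0656 scaled to miRNA reads, -0.0076 with the first 16 nt matched, -0.0136 with 1 substitution allowed), and of miR-34a-5p at 3 h (-0.0746 scaled to miRNA reads). With the 1 h library as the reference, miR-34a-5p had -0.17 at 3 h and -0.12 at 24 h and miR-34b-5p 0.20 at 24 h. miR-34b-3p changed sign at 3 h scaled to miRNA reads (-0.0873) and at 24 h with TMM (0.197) and median-of-ratios factors (0.198). miR-34c-3p at 1 h lost its call with TMM (-0.56), median-of-ratios factors (-0.53) and a pseudocount of 10 RPM (-0.32), and at 24 h gained one scaled to miRNA reads (-0.59). Of the p53-linked list, scaled to miRNA reads, 0 were called at 3 h, and at 24 h 2 higher and 1 lower. With TMM and median-of-ratios factors the 24 h over 3 h ratio of miR-34c-5p (0.0239 and 0.0295) and the 24 h over 1 h ratio of miR-34a-5p (0.0602 and 0.0275) were above 0, against -0.19 and -0.12 on deposited reads. Over all settings the log2 ratio of miR-34b-5p ran from -0.77 to -0.17 at 1 h, which its few reads limit.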
